A study of Mus musculus with 16 samples.

Results

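The Hox genes encode homeodomain transcription factors that give cells a position along the body axis and along the limb. In the mouse they lie in clusters A to D, and their order along each cluster, counted as paralog number, follows the order of their domains from head to tail and from shoulder or hip to digits. Genes of low paralog number mark the head and neck end, genes of high paralog number the tail end and the distal limb, and neighbouring genes share regulation by Polycomb and trithorax complexes, retinoic acid and Wnt signals. Cultured muscle cells are known to keep part of the Hox pattern of the muscle they came from. All 39 mouse genes whose symbol is Hox, a cluster letter and a number were taken from the 35613 genes of the series, with 11 in cluster A on chromosome 6, 10 in cluster B on chromosome 11, 9 in cluster C on chromosome 15 and 9 in cluster D on chromosome 2.

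RNA was sequenced from 16 libraries of Pax7-nGFP mouse skeletal muscle cells, in which nuclear GFP reports Pax7, the transcription factor of muscle stem cells. MPC medium held 5 µM forskolin (which raises cAMP), 5 µM RepSox (a TGF-beta receptor inhibitor) and 3 µM of a compound spelled CHIR9901. The labels do not spell out MPC. A single GFP+ MPC library, called high-passage here, came from a parental line of a female aged 39 weeks, from myoblasts sorted as GFP negative at passage 8, given only 2 passages in MPC medium and sorted for GFP. The other MPC cultures were myoblasts kept for 2 to 3 passages in myoblast medium and then for 5 to 6 passages in MPC medium, and were harvested after sorting for GFP (GFP+ MPC) or unsorted (bulk MPC). GFP+ myoblasts were sorted at passage 5 to 6, differentiated myoblasts had 3 days of differentiation medium and were taken at passage 4 to 5, and bulk myoblasts were unsorted at passage 3. These 5 groups had 3 replicates each, from parental lines of male animals aged 16 weeks. The labels name no muscle of origin, and p-values measure the spread between these samples. Sorted and unsorted cells went through different RNA extraction kits, and GFP+ and bulk myoblasts also differed in passage, so sorting, kit and passage cannot be told apart. MPC cultures differed from every myoblast group in number of passages as well as in medium, and these cannot be told apart. The same holds for passage and differentiation in differentiated against bulk myoblasts. In these bulk samples, fewer cells of a type and less RNA per cell cannot be told apart either.

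Total estimated counts ranged from 19.3 to 29.1 M per library. Levels are scaled TPM, the deposited TPM summed per gene and divided by the library's TMM factor, so they can be compared between genes as well as between libraries. Changes are log2 fold changes ± SE of gene counts from an edgeR quasi-likelihood fit of the 15 replicated libraries, and a gene passed at a Benjamini-Hochberg adjusted p under 0.05 over the 15533 genes tested. Of the 39 Hox genes, 27 had enough counts to be tested, namely all 11 of cluster A, 3 of cluster B, all 9 of cluster C and 4 of cluster D. A gene that was high in only 1 group could pass that filter through this group. The summed level of 8 myogenic markers was 1140 scaled TPM in the high-passage library, 1260 to 1660 in GFP+ MPC and 5600 to 6290 in bulk MPC. It was 2310 to 2800 in GFP+ myoblasts, 5700 to 6510 in differentiated myoblasts and 4460 to 4970 in bulk myoblasts. Single markers differed more between groups. Pax7 averaged 184 scaled TPM in GFP+ MPC, 19.8 in bulk MPC, 232 in GFP+ myoblasts, 11.2 in differentiated myoblasts and 150 in bulk myoblasts. Chrna1 averaged 27.9 in GFP+ MPC, 410 in bulk MPC, 529 in GFP+ myoblasts, 923 in differentiated myoblasts and 792 in bulk myoblasts. Both genes were singled out after their values were seen.

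Clusters A and C carried most of the Hox signal, with paralogs 9 and 10 at its centre. Clusters A and C held 96.9 ± 3.24% of the summed Hox level in GFP+ MPC, 85.4 ± 7.88% in bulk MPC, 97.8 ± 1.82% in GFP+ myoblasts, 90.8 ± 4.28% in differentiated myoblasts and 95.4 ± 0.889% in bulk myoblasts (SD, n = 3 each). Paralogs 9 and 10 together made up 59.7 ± 1.08% in GFP+ MPC, 49.7 ± 0.933% in bulk MPC, 46.4 ± 2.40% in GFP+ myoblasts, 45.1 ± 0.444% in differentiated myoblasts and 45.3 ± 2.13% in bulk myoblasts. Hoxc10 or Hoxa10, which act in the lumbar region and the proximal limb, was the highest Hox gene in 15 of the 16 libraries, and Hoxa9 was the highest in GFP+ myoblast replicate 3. In all, 25 Hox genes averaged at least 1 scaled TPM in at least 1 group: 10 of cluster A, none of cluster B, 9 of cluster C and 6 of cluster D. Hoxb13 and Hoxd12 had 0 counts in all 15 replicated libraries.

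**Figure D1:**
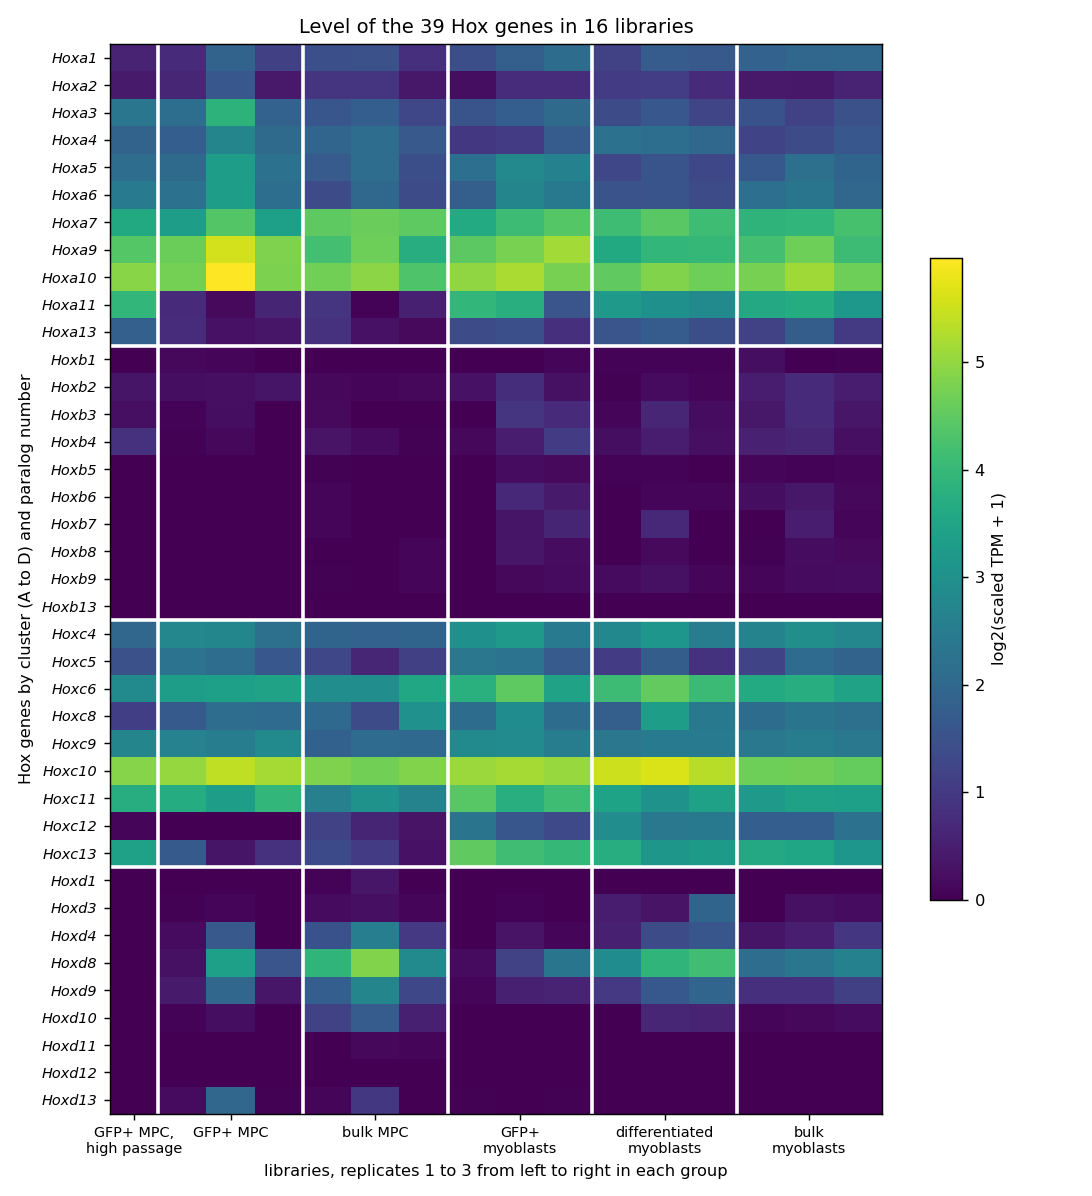
Level of each Hox gene, as log2(scaled TPM + 1), in rows by cluster and paralog number and in columns by library, with the high-passage library at the left and bulk myoblasts at the right. Clusters A and C carry nearly all of the signal, with Hoxa9, Hoxa10 and Hoxc10 among the strongest rows, and the rows of Hoxa11, Hoxa13, Hoxc12 and Hoxc13 are darker in the GFP+ and bulk MPC columns than in the myoblast columns.

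Among limb genes outside the clusters, Tbx4, a T-box gene of the hindlimb, was at 0.753 scaled TPM in the high-passage library, 6.28, 17.4 and 8.30 in GFP+ MPC, 17.3, 23.0 and 25 in bulk MPC, 1.23, 1.89 and 6.31 in GFP+ myoblasts, 2.27, 3.90 and 6.16 in differentiated myoblasts and 4.54, 4.09 and 6.77 in bulk myoblasts. Tbx5, its forelimb counterpart, was at 0.116 scaled TPM or less in every library, and Pitx1, which marks the hindlimb field, at 0.220 or less. All 3 genes were on the list of limb genes but were singled out after their values were seen, and Tbx5 and Pitx1 had too few counts to be tested.

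The most distal genes of clusters A and C were lower in the MPC cultures. Hoxa11 patterns the forearm and lower leg, Hoxa13 the hand and foot, and Hoxc13 hair and nails; in chick limb buds, muscle precursors express Hoxa11 and then Hoxa13. Hoxc12 lies between Hoxc11 and Hoxc13 in its cluster. All 4 genes were lower in GFP+ MPC than in GFP+ myoblasts and lower in bulk MPC than in bulk and in differentiated myoblasts. They were grouped with their values known, and 48.6%, 58.5% and 43.8% of all tested genes passed in these comparisons. The groups did not overlap for these genes, but how many of all genes do not overlap was not counted. Paralogs 11 to 13 together held 8.52 ± 3.32% of the summed Hox level in GFP+ MPC and 5.70 ± 0.764% in bulk MPC, against 22.8 ± 7.02% in GFP+ myoblasts, 16.8 ± 4.20% in differentiated myoblasts and 20.1 ± 1.37% in bulk myoblasts (SD, n = 3 each).

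The reference windows upstream of Hoxa13, Hoxa11 and Hoxa10 are shown because these neighbours on chromosome 6 differed in outcome. Each line holds the 250 bases before a RefSeq start site on GRCm38.p6, with every CG dinucleotide, the site of DNA methylation in promoters, in capitals. Hoxa10 has a pair of listed start sites.
Hoxa13 (chr6:52260881-52261130, minus strand): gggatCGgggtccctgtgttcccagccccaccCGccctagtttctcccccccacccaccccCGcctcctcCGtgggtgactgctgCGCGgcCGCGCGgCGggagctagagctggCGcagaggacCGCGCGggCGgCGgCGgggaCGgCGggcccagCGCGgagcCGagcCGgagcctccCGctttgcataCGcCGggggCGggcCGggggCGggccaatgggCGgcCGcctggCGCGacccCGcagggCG
Hoxa11 (chr6:52245811-52246060, minus strand): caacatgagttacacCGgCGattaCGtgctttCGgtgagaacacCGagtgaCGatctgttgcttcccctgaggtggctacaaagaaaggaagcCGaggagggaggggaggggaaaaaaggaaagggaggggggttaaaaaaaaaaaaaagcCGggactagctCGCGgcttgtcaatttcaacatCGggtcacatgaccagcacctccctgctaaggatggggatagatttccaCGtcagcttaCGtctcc
Hoxa10, upstream start (chr6:52240855-52241104, minus strand): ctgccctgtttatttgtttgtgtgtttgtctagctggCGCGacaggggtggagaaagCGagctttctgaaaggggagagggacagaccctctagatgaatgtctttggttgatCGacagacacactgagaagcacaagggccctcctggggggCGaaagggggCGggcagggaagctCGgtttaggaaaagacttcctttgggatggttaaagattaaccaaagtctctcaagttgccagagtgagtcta
Hoxa10, downstream start (chr6:52234940-52235189, minus strand): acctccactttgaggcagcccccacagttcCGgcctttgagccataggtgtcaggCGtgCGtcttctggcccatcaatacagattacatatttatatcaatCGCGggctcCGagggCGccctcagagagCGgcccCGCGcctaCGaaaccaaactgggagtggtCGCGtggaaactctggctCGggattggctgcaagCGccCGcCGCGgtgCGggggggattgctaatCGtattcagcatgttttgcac
The Hoxa13 window held 35 CG dinucleotides, the Hoxa11 window 13, and the Hoxa10 windows 7 and 20, against a median of 12.5 over the 24 windows listed for 22 Hox genes and of 6 over all 32851 windows. On either strand, a PBX-HOX motif (TGATTNAT) was in 2 of the 24 Hox windows and in 2.82% of all windows, and a MEIS/PKNOX motif (TGACAG) was in 2 of 24 and in 15.9%. A TCF/LEF motif (CTTTGAT) was in 1 of 24 Hox windows and in 3.21% of all windows, and a cAMP response element (TGACGTCA) was in 0 of 24 and in 1.55%. None of the windows shown held any of these motifs.

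Hoxa11 was at 0.651, 0.109 and 0.534 scaled TPM in GFP+ MPC, against 14.6, 12.3 and 1.98 in GFP+ myoblasts. In unsorted cells it was at 0.872, 0.0334 and 0.442 in bulk MPC, 8.26, 6.97 and 6.27 in differentiated myoblasts and 11.1, 11.9 and 8.13 in bulk myoblasts. The MPC libraries were all under 1 scaled TPM, and GFP+ myoblast replicate 3 was low among myoblasts while still above them. Hoxa11 fell by 4.43 ± 0.79 in GFP+ MPC against GFP+ myoblasts (edgeR adjusted p = 0.000502), by 4.47 ± 0.80 in bulk MPC against bulk myoblasts (adjusted p = 0.000373) and by 3.98 ± 0.80 in bulk MPC against differentiated myoblasts (adjusted p = 0.00143). Without bulk MPC replicate 1, the last pair of changes were -5.48 and -4.99.

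The Hoxa11 RNA that remained in MPC cells was assigned largely to a transcript not annotated as coding. This transcript held 59.0%, 0.0% and 51.8% of the Hoxa11 level in GFP+ MPC and all of it in the bulk MPC libraries, against 0.0%, 0.0% and 37.9% in GFP+ myoblasts and at most 0.0873% in bulk myoblasts. These shares rest on few counts, since Hoxa11 had 22, 4 and 19 estimated counts in GFP+ MPC and 28, 1 and 11 in bulk MPC. Hoxa11os, the antisense RNA of the locus, was at 0.822, 0.0842 and 0.721 scaled TPM in GFP+ MPC, against 18.2, 15.3 and 2.76 in GFP+ myoblasts, and at 0.287, 0.258 and 0.353 in bulk MPC, against 10.7, 17.2 and 7.91 in bulk myoblasts. It fell by 4.41 ± 0.72 in GFP+ MPC (edgeR adjusted p = 0.000269) and by 5.08 ± 0.79 in bulk MPC (adjusted p = 0.00012). Of the 31-base stretches of Hoxa11, 33.9% occur in Hoxa11os on the opposite strand. The libraries were stranded, but whether the counting used strand is not given in the sources used here, so reads from these shared stretches cannot be told apart.

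Hoxa13 was at 0.681, 0.222 and 0.278 scaled TPM in GFP+ MPC, against 1.62, 1.74 and 0.784 in GFP+ myoblasts. It was at 0.798, 0.215 and 0.111 in bulk MPC, 2.00, 2.34 and 1.69 in differentiated myoblasts and 1.21, 2.38 and 1.03 in bulk myoblasts. The gap between the groups was narrow, since replicate 1 of each MPC group lay close to the lowest myoblast library. Hoxa13 fell by 1.77 ± 0.57 in GFP+ MPC (edgeR adjusted p = 0.021), by 1.55 ± 0.57 in bulk MPC against bulk myoblasts (adjusted p = 0.0323) and by 2.13 ± 0.57 against differentiated myoblasts (adjusted p = 0.00885). The call in sorted cells was lost without GFP+ MPC replicate 2 or 3 (adjusted p = 0.0594 and 0.0763) and without GFP+ myoblast replicate 1 or 2 (0.0591 and 0.0756). The call against bulk myoblasts was lost without bulk MPC replicate 2 or 3 (adjusted p = 0.0965 and 0.113) and without bulk myoblast replicate 1 or 2 (0.0678 and 0.12). Without replicate 1 of the MPC group, the changes were -2.35, -2.29 and -2.87.

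Hoxc13 was at 2.24, 0.265 and 0.794 scaled TPM in GFP+ MPC, against 22.0, 16.6 and 14.8 in GFP+ myoblasts. Bulk MPC had 1.55, 1.08 and 0.222, differentiated myoblasts 12.1, 7.96 and 8.54, and bulk myoblasts 11.2, 10.4 and 7.83. It ranked 4th among the Hox genes in GFP+ myoblasts by group mean and 18th in GFP+ MPC. Hoxc13 fell by 3.88 ± 0.61 in GFP+ MPC (edgeR adjusted p = 0.000191), and by 3.16 ± 0.61 in bulk MPC against bulk myoblasts (adjusted p = 0.000625) and against differentiated myoblasts (3.16 ± 0.61, adjusted p = 0.00111). Without GFP+ MPC replicate 1 its change in sorted cells was -5.00.

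Hoxc12 had no reads in GFP+ MPC. It had 0 estimated counts in each of these 3 libraries, against 3.95, 2.04 and 1.5 scaled TPM in GFP+ myoblasts, and was at least 40.9-fold lower, with 3 counts over the group as the limit that a count of 0 allows (edgeR adjusted p = 5.21e-05). In unsorted cells it was at 1.26, 0.541 and 0.244 scaled TPM in bulk MPC, 6.57, 4.23 and 4.29 in differentiated myoblasts and 2.43, 2.45 and 3.65 in bulk myoblasts. Here it was reduced but present, and it fell by 1.85 ± 0.52 in bulk MPC against bulk myoblasts (adjusted p = 0.00923) and by 2.72 ± 0.52 against differentiated myoblasts (adjusted p = 0.00152). Without bulk MPC replicate 1 these changes were -2.65 and -3.53.

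Hoxc11, the next gene inward in cluster C, had no fall that passed. It was at 11.9, 8.98 and 14.4 scaled TPM in GFP+ MPC, against 20.4, 12.5 and 16.4 in GFP+ myoblasts, and at 5.07, 7.43 and 5.33 in bulk MPC, 10.1, 7.27 and 9.70 in differentiated myoblasts and 8.36, 9.64 and 9.38 in bulk myoblasts. Its change was -0.40 ± 0.21 in GFP+ MPC against GFP+ myoblasts (edgeR adjusted p = 0.131), -0.45 ± 0.21 in bulk MPC against bulk myoblasts (adjusted p = 0.0837) and -0.47 ± 0.21 against differentiated myoblasts (adjusted p = 0.0887). The groups overlapped in the sorted cells and against differentiated myoblasts, and not against bulk myoblasts.

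The paralogs 10 had no fall that passed in the comparisons of MPC with GFP+ or bulk myoblasts. Hoxa10, which limb muscle stem cells of adult mice are known to need, was at 25.6, 61.7 and 26.5 scaled TPM in GFP+ MPC, against 30.4, 35.9 and 25.7 in GFP+ myoblasts. It was at 24.8, 29.6 and 19.1 in bulk MPC, 21.9, 27.5 and 24.2 in differentiated myoblasts and 25.7, 33.6 and 24.0 in bulk myoblasts. The groups overlapped, and the change was 0.44 ± 0.29 in GFP+ MPC against GFP+ myoblasts (edgeR adjusted p = 0.232) and 0.02 ± 0.29 in bulk MPC against bulk myoblasts (adjusted p = 0.956). GFP+ MPC replicate 2 stood well above every other library. A processed transcript, Hoxa10-203, which is not annotated as coding, made up 73.4% of the Hoxa10 level, and transcripts of this kind made up 63.8% to 84.7% in the 15 replicated libraries.

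Hoxc10 varied little within groups and differed between them. It was at 31.7, 41.4 and 34.9 scaled TPM in GFP+ MPC, 27.0, 24.9 and 27.5 in bulk MPC, 32.5, 34.9 and 32.1 in GFP+ myoblasts, 44.7, 49.0 and 39.5 in differentiated myoblasts and 24.1, 24.6 and 22.6 in bulk myoblasts. Its order by group mean was thus differentiated myoblasts, then the sorted groups, then bulk MPC and bulk myoblasts. The sorted groups overlapped each other, and GFP+ MPC also overlapped differentiated myoblasts. Neither sorted group was tested against differentiated myoblasts. Hoxc10 rose by 0.93 ± 0.11 in differentiated against bulk myoblasts (edgeR adjusted p = 1.65e-05), by 0.46 ± 0.11 in GFP+ against bulk myoblasts (adjusted p = 0.00698) and by 0.36 ± 0.11 in GFP+ against bulk MPC (adjusted p = 0.0108). The last call was lost without GFP+ MPC replicate 2 (0.26, adjusted p = 0.0514). It rose by 0.32 ± 0.11 in bulk MPC against bulk myoblasts (adjusted p = 0.0224), a call lost without bulk MPC replicate 1 or 3 (adjusted p = 0.0605 and 0.0904) or bulk myoblast replicate 3 (0.0823).

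The homeobox sequences of these genes are shown because they set the members apart within 180 bases that all of them share, and because reads assigned to a gene depend on such differences. They come from GENCODE M21 transcripts on GRCm38, and the capitals mark the 18 bases of 6 codons in the third helix, which contacts DNA.
Hoxa10: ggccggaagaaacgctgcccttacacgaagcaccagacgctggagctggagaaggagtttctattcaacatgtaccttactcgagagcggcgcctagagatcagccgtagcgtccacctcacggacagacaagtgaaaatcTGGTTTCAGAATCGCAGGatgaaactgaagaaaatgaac
Hoxc10: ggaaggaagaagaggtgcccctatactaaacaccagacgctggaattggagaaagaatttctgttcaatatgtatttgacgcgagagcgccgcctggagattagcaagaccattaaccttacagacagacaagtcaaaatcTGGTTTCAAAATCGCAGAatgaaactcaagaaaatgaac
Hoxa11: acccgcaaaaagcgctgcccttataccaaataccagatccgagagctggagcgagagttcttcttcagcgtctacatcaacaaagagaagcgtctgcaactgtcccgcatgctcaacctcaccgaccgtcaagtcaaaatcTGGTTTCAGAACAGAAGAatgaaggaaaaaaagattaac
Hoxc12: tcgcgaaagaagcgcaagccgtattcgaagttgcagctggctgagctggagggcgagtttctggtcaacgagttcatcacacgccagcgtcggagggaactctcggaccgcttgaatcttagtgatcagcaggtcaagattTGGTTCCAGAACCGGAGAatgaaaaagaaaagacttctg
Hoxa13: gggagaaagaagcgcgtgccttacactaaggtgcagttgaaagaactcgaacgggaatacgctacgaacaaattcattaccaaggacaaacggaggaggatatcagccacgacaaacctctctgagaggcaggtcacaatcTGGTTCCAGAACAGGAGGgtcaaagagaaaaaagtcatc
Hoxc13: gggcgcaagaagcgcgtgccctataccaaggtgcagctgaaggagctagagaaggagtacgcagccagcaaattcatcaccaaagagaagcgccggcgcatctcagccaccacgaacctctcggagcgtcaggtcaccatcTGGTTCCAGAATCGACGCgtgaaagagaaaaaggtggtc
Hoxa10 and Hoxc10 were identical at 80.6% of these bases and Hoxa13 and Hoxc13 at 77.2%, whereas Hoxa10 and Hoxa13 were identical at 55.6%. The longest run without a difference was 14 bases in both of these paralog pairs. Hoxc11, not shown here, was identical to Hoxa11 at 86.7% of the bases, with a longest run of 20 bases. Hoxa4, Hoxa10, Hoxa11, Hoxb2, Hoxb13, Hoxc11, Hoxc12, Hoxd12 and Hoxd13 shared no stretch of 31 bases with another gene on the same strand. Exact matches of that length on that strand thus set these genes apart.

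**Figure D2:**
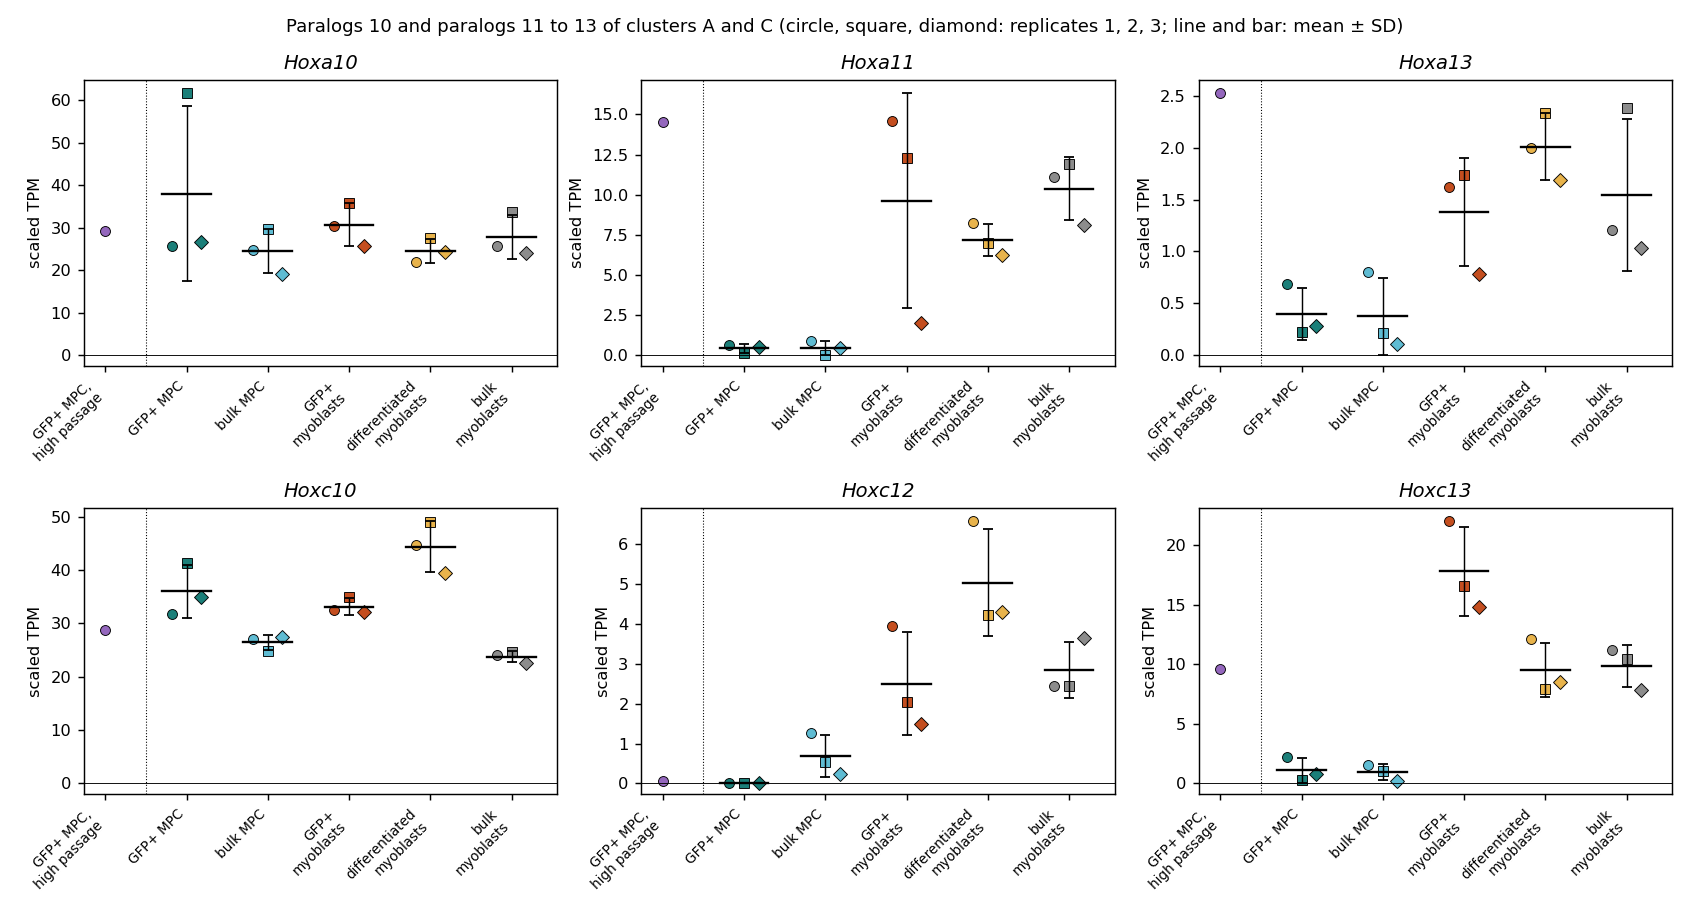
Scaled TPM of paralogs 10 and of distal genes of clusters A and C in each library, with the mean ± SD of each group of 3 and the high-passage library at the left of the dotted line. Hoxa10 and Hoxc10 are at 19.1 scaled TPM or more in every library, whereas Hoxa11 stays under 1 in the 6 GFP+ and bulk MPC libraries and reaches 14.5 in the high-passage library.

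In sorted cells, genes of clusters A, B and C passed. In GFP+ MPC against GFP+ myoblasts, 2 of the 27 tested Hox genes rose and 6 fell, or 29.6%, where 48.6% of all tested genes passed (26.0% higher and 22.7% lower). Fitting these groups alone gave 4 calls. The median log2 fold change was -0.16 over the tested Hox genes and 0.09 over all genes. The falls beside the distal genes were in cluster B, in Hoxb3 (-3.42 ± 1.13, edgeR adjusted p = 0.0235) and Hoxb4 (-3.53 ± 1.02, adjusted p = 0.0117). The rises were in Hoxa3, a gene of the pharyngeal region (1.55 ± 0.51, adjusted p = 0.0235), and in Hoxa4, a gene of the neck region (1.44 ± 0.37, adjusted p = 0.00603). No gene of paralogs 6 to 10 passed, among 11 tested.

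The rise of Hoxa3 depended on a library. It was at 3.44, 13.5 and 2.67 scaled TPM in GFP+ MPC, against 1.91, 2.47 and 3.18 in GFP+ myoblasts, so the groups overlapped, and without GFP+ MPC replicate 2 the change was 0.47 (edgeR adjusted p = 0.299). Without GFP+ myoblast replicate 1 or 2 the adjusted p was 0.0928 and 0.0649. Hoxa4 was at 2.42, 5.62 and 3.21 in GFP+ MPC, against 0.949, 1.08 and 2.35 in GFP+ myoblasts, with no overlap between the groups, and lost its call with these groups fitted alone (1.38, adjusted p = 0.0575). Hoxb3 was at 0.0364, 0.161 and 0.0 scaled TPM in GFP+ MPC, against 0.0145, 0.877 and 0.649 in GFP+ myoblasts, and lost its call without GFP+ MPC replicate 1 or 3 (adjusted p = 0.0528 and 0.0756) or GFP+ myoblast replicate 2 or 3 (0.0985 and 0.0503). Over these and other alternatives its change ran from -4.09, without GFP+ MPC replicate 2, to -2.70, with counts scaled for transcript length, and it was -4.02 without GFP+ myoblast replicate 1. Of the 31-base stretches of Hoxb3, 52.6% occur on the opposite strand of other genes, among them its antisense gene Hoxb3os. Hoxb4 was at 0.0237, 0.0925 and 0.0 in GFP+ MPC, against 0.0949, 0.402 and 1.06 in GFP+ myoblasts. It lost its call without GFP+ myoblast replicate 3 (-2.46, adjusted p = 0.0603) and changed by -5.03 without GFP+ MPC replicate 2.

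In unsorted cells, genes of clusters A, B and C fell. In bulk MPC against bulk myoblasts, 3 of the 27 Hox genes rose and 9 fell, or 44.4%, where 58.5% of all genes passed (28.4% higher and 30.1% lower), with medians of -0.09 and -0.01. Hoxc4 was at 2.77, 2.66 and 2.77 scaled TPM in bulk MPC, against 5.41, 6.68 and 5.74 in bulk myoblasts, and fell by 0.98 ± 0.26 (edgeR adjusted p = 0.00558). Hoxc5 was at 1.41, 0.566 and 1.20 in bulk MPC, against 1.34, 3.23 and 2.72 in bulk myoblasts, and fell by 1.39 ± 0.30 (adjusted p = 0.00163), though the levels overlapped and counts scaled for transcript length gave -1.04 with an adjusted p of 0.0906. Hoxc9, a gene of the thoracic region, was at 2.59, 3.25 and 3.10 in bulk MPC, against 4.28, 4.77 and 4.25 in bulk myoblasts. Its change of -0.39 ± 0.16 (adjusted p = 0.0483) missed the threshold in all 13 alternatives run, with adjusted p values of 0.0512 to 0.165, the highest without bulk MPC replicate 1. The change in bulk cells was not shown to differ from that in sorted cells for Hoxc4 or Hoxc9 (adjusted p of the difference = 0.156 and 0.204 in edgeR).

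Hoxa4 rose in unsorted MPC too. It was at 2.84, 3.40 and 2.18 scaled TPM in bulk MPC, against 1.35, 1.61 and 2.06 in bulk myoblasts, and rose by 0.92 ± 0.37 (edgeR adjusted p = 0.046). That call was lost without bulk MPC replicate 1 or 2 (adjusted p = 0.0916 and 0.122) or bulk myoblast replicate 1 or 2 (0.136 and 0.107). Hoxb2, a gene of the hindbrain, was at 0.0908, 0.0585 and 0.0940 in bulk MPC, against 0.397, 0.659 and 0.376 in bulk myoblasts, and fell by 1.80 ± 0.52 (adjusted p = 0.0091). Hoxb3 fell by 4.49 ± 1.32 (adjusted p = 0.0102), with 2 estimated counts in bulk MPC against 66 in bulk myoblasts. The ratio of these summed counts, scaled for library size, was 0.0398, with an exact 95% binomial interval of 0.00472 to 0.150 that covers counting error only. Without bulk MPC replicate 1 its change was -7.35, and with counts scaled for transcript length it was -3.21 (adjusted p = 0.0641).

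**Figure D3:**
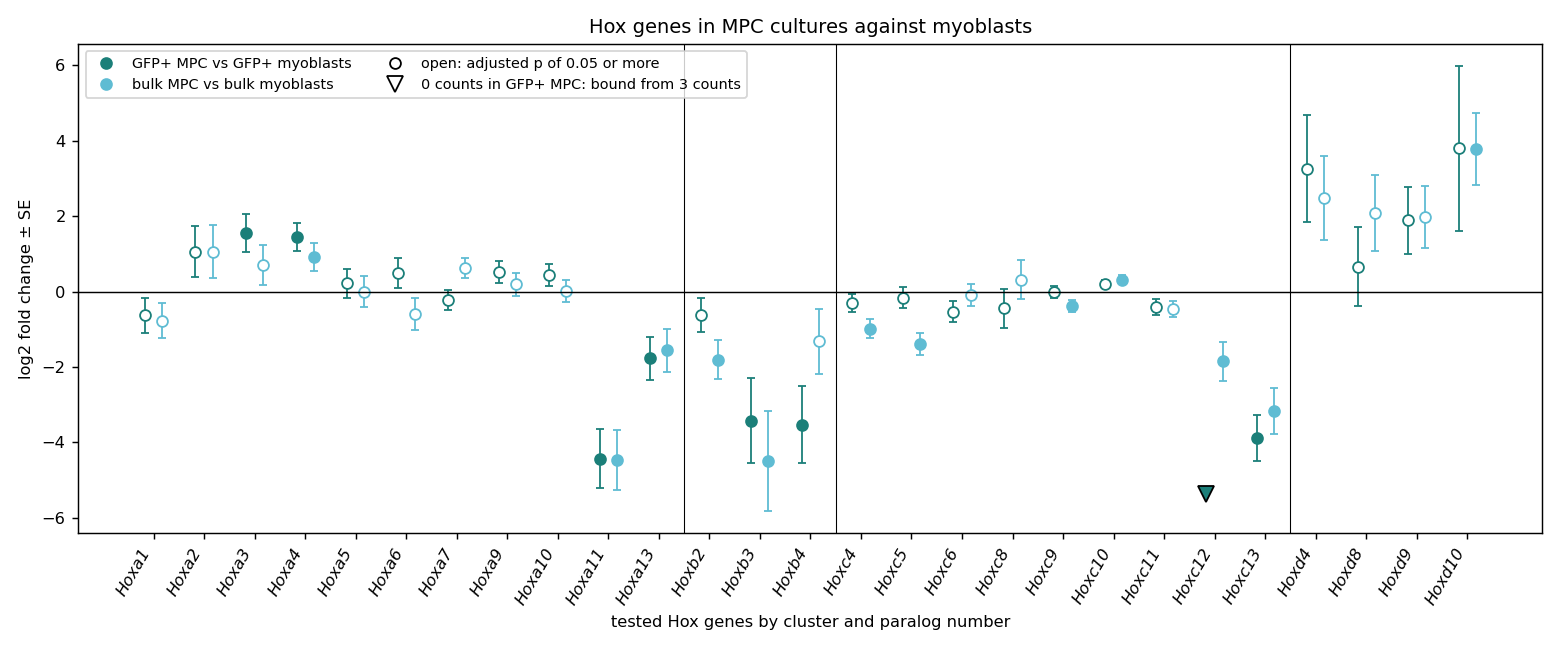
Log2 fold change ± SE of the 27 tested Hox genes in GFP+ MPC against GFP+ myoblasts and in bulk MPC against bulk myoblasts, in order of cluster and paralog number, with filled points for an adjusted p under 0.05. Hoxa11 lies at -4.43 and -4.47 and Hoxc13 at -3.88 and -3.16, at the distal ends of their clusters.

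Cluster B was close to silent in all groups. Its summed level was 0.312, 0.490 and 0.261 scaled TPM in GFP+ MPC, 0.596, 0.186 and 0.270 in bulk MPC, 0.342, 3.41 and 3.23 in GFP+ myoblasts, 0.457, 2.15 and 0.586 in differentiated myoblasts and 1.65, 2.86 and 1.32 in bulk myoblasts. All MPC libraries lay below all bulk myoblast libraries, and GFP+ myoblast replicate 1 was as low as the MPC libraries. Cluster C, by contrast, summed to 71.9, 77.1 and 75.1 scaled TPM in GFP+ MPC, 51.3, 48.6 and 58.5 in bulk MPC, 112, 112 and 89.6 in GFP+ myoblasts, 103, 114 and 92.3 in differentiated myoblasts and 72.0, 77.9 and 69.8 in bulk myoblasts. The sums carry no test.

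**Figure D4:**
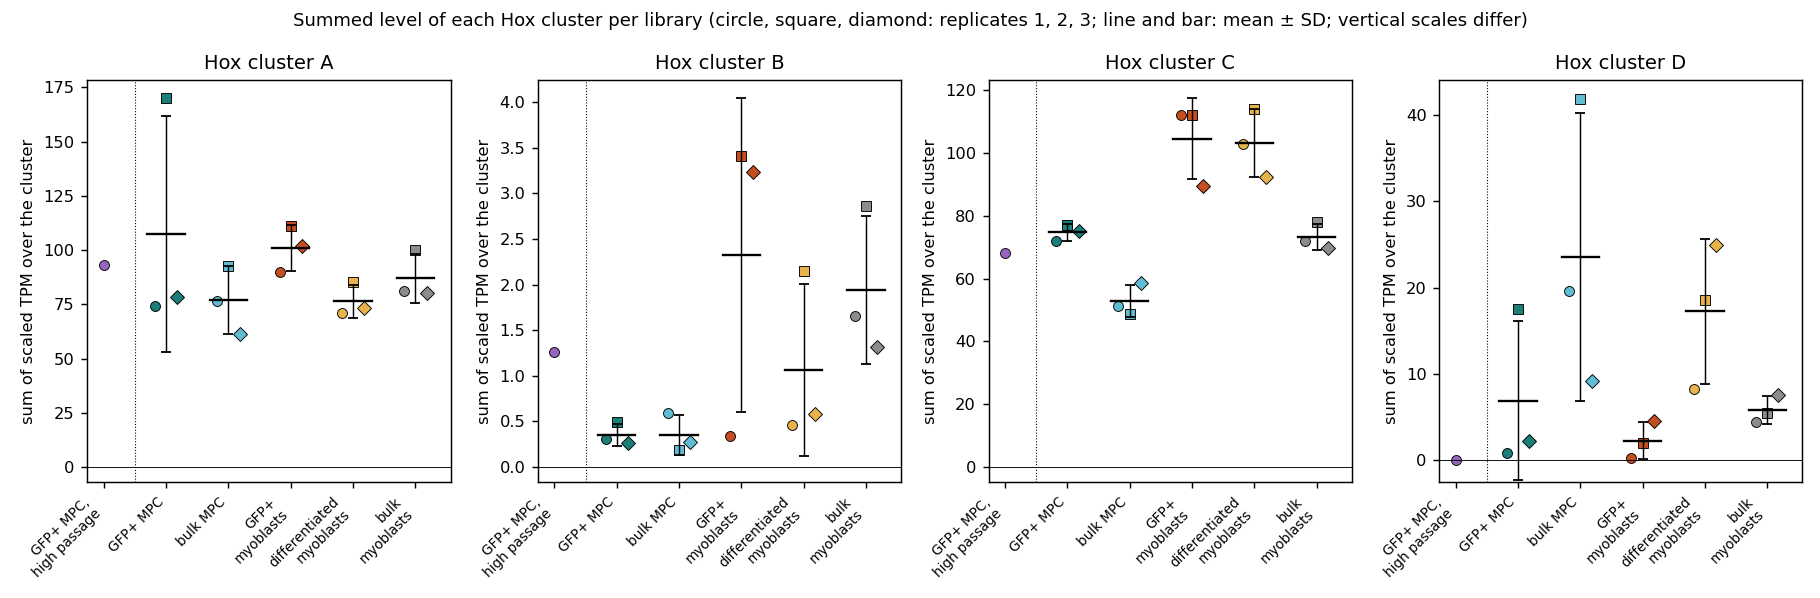
Sum of scaled TPM over the genes of each Hox cluster in every library, with the mean ± SD of each group of 3 and separate vertical scales. Cluster A and cluster C sums are 48.6 scaled TPM or more throughout, cluster B stays at 3.41 or less, and cluster D runs from 0.0 in the high-passage library to 41.9 in bulk MPC replicate 2.

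Cluster D differed widely between replicates. Hoxd8, a gene of the trunk, was at 0.198, 9.33 and 1.97 scaled TPM in GFP+ MPC, 13.9, 27.6 and 6.18 in bulk MPC, 0.136, 1.28 and 3.97 in GFP+ myoblasts, 6.46, 14 and 16.7 in differentiated myoblasts and 3.36, 4.05 and 5.16 in bulk myoblasts. All bulk MPC and differentiated libraries were above all bulk myoblast libraries, and the changes of 2.09 ± 1.01 and 1.72 ± 1.01 did not pass (edgeR adjusted p = 0.0927 and 0.165). How many of all genes separate in this way was not counted. Hoxd9 was at 0.339, 2.94 and 0.277 in GFP+ MPC, 2.42, 5.60 and 1.44 in bulk MPC, 0.0840, 0.443 and 0.509 in GFP+ myoblasts, 0.998, 2.14 and 2.87 in differentiated myoblasts and 0.757, 0.755 and 1.20 in bulk myoblasts. All bulk MPC libraries were above all bulk myoblast libraries, the differentiated libraries overlapped them, and it did not pass either (1.97 ± 0.82 in bulk MPC against bulk myoblasts, adjusted p = 0.0533). Hoxd10 was the only gene of the cluster to pass, at 1.26, 2.32 and 0.434 scaled TPM in bulk MPC, against 0.0689, 0.0963 and 0.146 in bulk myoblasts (3.79 ± 0.96, adjusted p = 0.00533). Without bulk MPC replicate 2 its change was 3.18.

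In both MPC groups, replicate 2 was the highest library for all 6 cluster D genes of more than trace level. Hoxd13, a gene of the digits, was at 0.137, 2.89 and 0.0259 scaled TPM in GFP+ MPC and 0.0541, 0.956 and 0.0 in bulk MPC, against 0.0218, 0.0 and 0.0313 in GFP+ myoblasts and 0.0 in every differentiated and bulk myoblast library. In replicate 2 of each MPC group it stood above all other libraries of these 5 groups. Hoxd4 was at 0.129, 2.16 and 0.0 in GFP+ MPC, 1.85, 4.85 and 0.986 in bulk MPC, and at most 2.02 in the other groups. Values of Hoxd3 and Hoxd4 are uncertain, since 61.1% and 49.1% of their 31-base stretches are shared with other genes on the same strand, among them each other and the overlapping gene Gm28230.

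Fibroblast markers moved with that library. All 8 markers of fibroblasts and fibro-adipogenic progenitors, and all 4 of pericytes and smooth muscle, were highest in replicate 2 among bulk MPC libraries, and 4 of the 7 fibroblast markers with any level were highest in replicate 2 of GFP+ MPC. Their summed level was 14.2, 21.3 and 12.3 scaled TPM in GFP+ MPC, 3.36, 68.5 and 4.63 in bulk MPC, 30.3 to 50.3 in GFP+ myoblasts, 7.34 to 14.6 in differentiated myoblasts and 39.8 to 71.9 in bulk myoblasts. The matrix gene Dcn was at 0.765, 8.83 and 1.13 in GFP+ MPC, 0.0459, 31.9 and 0.178 in bulk MPC and at 0.473 or less in the other 3 groups, and Lum was at 5.55 in bulk MPC replicate 2 and at 0 in the other 14 replicated libraries. In differentiated myoblasts, replicates 1, 2 and 3 had the same order in Hoxd8 (6.46, 14 and 16.7 scaled TPM), in the fibroblast marker sum (7.34, 11.7 and 14.6) and in Col1a1 (0.0101, 0.713 and 5.26), and Dcn was at 0.473 or less. Of the other markers there, Dcn and Ly6a had this order, and Pdgfra, Pi16 and Tcf7l2 did not. In GFP+ myoblasts Hoxd8 was at 0.136, 1.28 and 3.97, whereas the marker sum had the opposite order (50.3, 37.8 and 30.3). Most of that sum was Tcf7l2 (32.9, 32.8 and 22.4) and Ly6a (15.9, 3.82 and 6.76). In bulk MPC replicate 2 these genes were at 3.45 and 4.82 and Dcn was the largest part, so the sums are not alike in make-up. In bulk myoblasts Hoxd8 was at 3.36, 4.05 and 5.16, and the sum, at 43.0, 39.8 and 71.9, had another order. The high-passage library had Dcn at 12.5 with every cluster D gene at 0. Dcn, Lum, Col1a1, Tcf7l2, Ly6a and Hoxd8 were singled out here after their values were seen. The part of other cells in the cluster D levels was not tested.

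**Figure D5:**
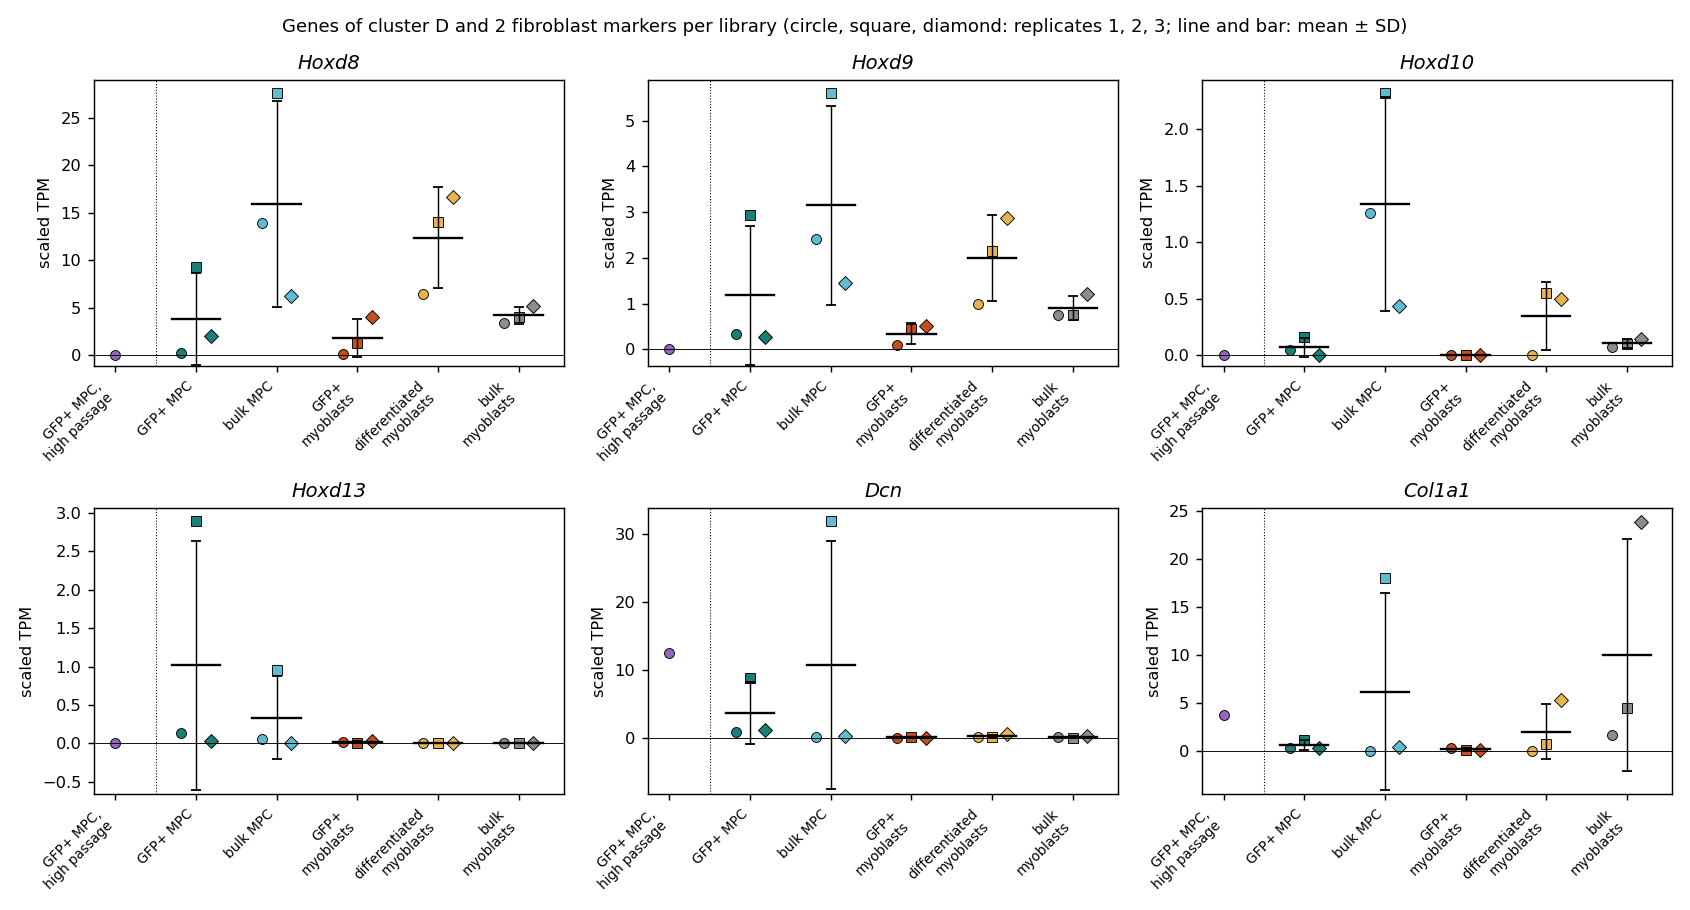
Scaled TPM of Hoxd8, Hoxd9, Hoxd10 and Hoxd13 and of the fibroblast markers Dcn and Col1a1 in each library, with the mean ± SD of each group of 3. Replicate 2 (square) is highest in both MPC groups in all panels, with Hoxd8 at 9.33 and 27.6. Hoxd8 and Col1a1 have the same order of replicates in differentiated and bulk myoblasts and opposite orders in GFP+ myoblasts. Dcn is at 0.473 or less in these myoblast groups.

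The number of Hox genes called in differentiation depended on the fit. In differentiated against bulk myoblasts, 3 of 27 Hox genes rose and 1 fell, or 14.8%, where 54.2% of all genes passed (25.6% higher and 28.6% lower), with medians of 0.09 and -0.03. The count was 12 with these groups fitted alone, 7 without the MPC libraries of replicate 2, and 2 with no filter on low counts or without differentiated replicate 2 or bulk myoblast replicate 1 or 2. Beside Hoxc10, Hoxa4 rose by 1.05 ± 0.37 (edgeR adjusted p = 0.0283) and Hoxc6, a gene of the forelimb level, by 0.76 ± 0.28 (adjusted p = 0.0376), while Hoxb2 fell by 2.30 ± 0.55 (adjusted p = 0.00336). Hoxc6 was at 16.2, 22.1 and 15.9 scaled TPM in differentiated myoblasts, against 11.5, 12.2 and 9.93 in bulk myoblasts. Its call was lost without differentiated replicate 2 or 3 (adjusted p = 0.138 and 0.0573) and without any of the bulk myoblast replicates (0.0613 to 0.107). Hoxa4 was at 3.67, 3.47 and 2.96 in differentiated myoblasts, against 1.35, 1.61 and 2.06 in bulk myoblasts, and lost its call without differentiated replicate 1 or 2 (0.0729 and 0.0656) or bulk myoblast replicate 1 or 2 (0.0975 and 0.0761). None of the distal genes Hoxa11, Hoxa13, Hoxc12 and Hoxc13 passed in this comparison.

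Set against differentiated myoblasts, bulk MPC had no Hox gene that rose. In bulk MPC against differentiated myoblasts, 0 of 27 Hox genes rose and 9 fell, or 33.3%, where 43.8% of all genes passed (24.4% higher and 19.4% lower), with medians of -0.27 and 0.07. Beside the 4 distal genes, the falls were all in cluster C, in Hoxc4 (-1.07 ± 0.26, edgeR adjusted p = 0.00514), Hoxc5 (-1.14 ± 0.31, adjusted p = 0.00942), Hoxc6 (-0.85 ± 0.29, adjusted p = 0.0287), Hoxc9 (-0.42 ± 0.16, adjusted p = 0.0481) and Hoxc10 (-0.61 ± 0.11, adjusted p = 0.00067). Hoxc6 was at 6.60, 6.58 and 11 scaled TPM in bulk MPC, against 16.2, 22.1 and 15.9 in differentiated myoblasts. It lost its call without bulk MPC replicate 1 or 2 (adjusted p = 0.108 and 0.107) or differentiated replicate 2 (0.106), Hoxc9 lost its call without any of the 6 libraries (0.0612 to 0.161), and Hoxc5 had -0.31 (adjusted p = 0.663) with counts scaled for transcript length. The comparisons with bulk MPC and with bulk myoblasts share libraries, so their calls are not independent.

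Within the MPC culture, the share of Hox genes higher in sorted Pax7 reporter cells was near that of all genes. In GFP+ MPC against bulk MPC, 9 of 27 Hox genes rose and 3 fell, or 44.4%, where 66.6% of all genes passed (32.9% higher and 33.7% lower), with medians of 0.29 and -0.01. Fitting these groups alone gave 5 calls in place of 12. Of cluster C, Hoxc11 was at 11.9, 8.98 and 14.4 scaled TPM in GFP+ MPC, against 5.07, 7.43 and 5.33 in bulk MPC, and rose by 0.88 ± 0.21 (edgeR adjusted p = 0.00226). Hoxc5 was at 3.82, 3.38 and 2.08 in GFP+ MPC, against 1.41, 0.566 and 1.20 in bulk MPC, and rose by 1.78 ± 0.30 (adjusted p = 0.000164). Hoxc9 rose by 0.76 ± 0.16 (adjusted p = 0.000846) and Hoxc4 by 0.82 ± 0.26 (adjusted p = 0.0127), a call lost without GFP+ MPC replicate 1 (adjusted p = 0.0527).

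The cluster A rises in sorted MPC rested in part on GFP+ MPC replicate 2, which was the highest library of its group for 8 of 10 cluster A genes. Hoxa3 (1.60 ± 0.52, edgeR adjusted p = 0.0145), Hoxa5 (1.00 ± 0.39, adjusted p = 0.0373), Hoxa6 (1.31 ± 0.42, adjusted p = 0.0135) and Hoxa9 (0.82 ± 0.29, adjusted p = 0.0255) rose against bulk MPC. Without that library the changes were 0.53, 0.38, 0.73 and 0.40, with adjusted p values of 0.201, 0.327, 0.103 and 0.189. Hoxa9, which is known to be induced in activated muscle stem cells of old mice, was at 23.9, 46.6 and 27.2 scaled TPM in GFP+ MPC, against 17.1, 24.3 and 12.2 in bulk MPC. These calls were also lost without bulk MPC replicate 3 (adjusted p = 0.0502 to 0.126), and those of Hoxa5, Hoxa6 and Hoxa9 without bulk MPC replicate 1 (0.0559 to 0.094). Hoxa7 went the other way, at 9.11, 19.6 and 9.32 in GFP+ MPC, against 21.4, 23.5 and 21.5 in bulk MPC, and fell by 0.75 ± 0.27 (adjusted p = 0.0246). Its call was lost without GFP+ MPC replicate 1 or 3 (adjusted p = 0.102 and 0.103) or bulk MPC replicate 2 (0.0525).

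Hoxc12 and Hoxd10 were the other genes that fell in GFP+ MPC against bulk MPC. Hoxc12 had 0 counts against 20, 8 and 3 in bulk MPC and was at least 12.3-fold lower (edgeR adjusted p = 0.000331), or at least 6.84-fold without bulk MPC replicate 1. Hoxd10 was at 0.0415, 0.161 and 0.0 scaled TPM in GFP+ MPC, against 1.26, 2.32 and 0.434 in bulk MPC, and fell by 4.29 ± 1.03 (adjusted p = 0.00299). Without GFP+ MPC replicate 2 or 3 its change was -5.80 and -3.70, and without bulk MPC replicate 2 it was -3.68.

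In myoblasts, sorted and unsorted cells differed in paralogs 10 and 11 of cluster C. In GFP+ against bulk myoblasts, 2 of 27 Hox genes rose and none fell, or 7.41%, where 30.0% of all genes passed (12.7% higher and 17.4% lower), with medians of 0.14 and -0.02. There were 4 calls without the MPC libraries of replicate 2. Beside Hoxc10, Hoxc11 was at 20.4, 12.5 and 16.4 scaled TPM in GFP+ myoblasts, against 8.36, 9.64 and 9.38 in bulk myoblasts, and rose by 0.83 ± 0.21 (edgeR adjusted p = 0.00989). The difference between the sort effect of the MPC culture and that of the myoblast culture was tested directly, and 1 of 27 Hox genes was higher and 1 lower, or 7.41%, where 37.1% of all genes passed (20.3% higher and 16.8% lower), with medians of 0.05 and 0.09. These were Hoxc5 (1.23 ± 0.41, adjusted p = 0.0316) and Hoxc12, whose fitted value of -6.37 ± 1.31 (adjusted p = 0.00299) rests on the 0 counts in GFP+ MPC and is no bound (-5.58 without bulk MPC replicate 1). The Hoxc5 call was lost without any of 9 of the 12 libraries (edgeR adjusted p = 0.0507 to 0.0821), with counts scaled for transcript length (0.273) and with no filter on low counts (0.0558). Those libraries were GFP+ MPC replicates 1 and 2, bulk MPC replicates 1, 2 and 3, GFP+ myoblast replicates 1 and 3, and bulk myoblast replicates 2 and 3. For Hoxc11 both sort effects were rises, and their difference did not pass.

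Proteins that act with Hox factors changed in mixed directions. Meis, Pbx and Pknox proteins bind DNA beside Hox proteins, and in myoblasts Pbx and Meis also help Myod bind its targets. In GFP+ MPC against GFP+ myoblasts, 3 of 9 such genes rose and 3 fell (median 0.18), where 48.6% of all genes passed. The largest called changes were in Pbx4 (-1.75 ± 0.48, edgeR adjusted p = 0.0083), Meis3 (-1.68 ± 0.36, adjusted p = 0.00194), Meis1 (1.47 ± 0.31, adjusted p = 0.00183) and Meis2 (-1.45 ± 0.40, adjusted p = 0.00959). Meis3 was at 3.72, 3.50 and 3.71 scaled TPM in GFP+ MPC, against 15.8, 18.7 and 8.48 in GFP+ myoblasts, and at 0.388, 2.37 and 1.00 in bulk MPC, against 11.7, 14.3 and 10.4 in bulk myoblasts. In bulk MPC against bulk myoblasts, 1 of 9 rose and 2 fell (median -0.35), where 58.5% of all genes passed. There Meis3 changed by -3.48 ± 0.41 (edgeR adjusted p = 1.34e-05) and Pbx2 by 0.72 ± 0.15 (adjusted p = 0.00124).

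Limb and regional factors outside the clusters changed in both directions as well. Of 22 tested, 9 rose and 4 fell in GFP+ MPC against GFP+ myoblasts, and 10 rose and 6 fell in bulk MPC against bulk myoblasts, with medians of 0.57 and 0.74, where 48.6% and 58.5% of all genes passed. Msc (musculin), a bHLH repressor of branchial muscle precursors, was at 16.4, 116 and 26.1 scaled TPM in GFP+ MPC and at 0 counts in GFP+ myoblasts. With its counts pooled over the group it was at least 1310-fold higher (edgeR adjusted p = 3.26e-05). Replicate 2 carried most of that level, and the bound would be lower without it. Lmx1b, which gives the limb its dorsal side, was at 1.67, 1.46 and 0.792 in GFP+ MPC and at 0 counts in GFP+ myoblasts, at least 107-fold higher (adjusted p = 1.33e-06). En1, the ventral counterpart, was at 0.0457, 0.273 and 0.110 in GFP+ MPC, against 2.18, 3.67 and 0.502 in GFP+ myoblasts, and changed by -3.77 ± 0.74 (adjusted p = 0.000941). In bulk MPC against bulk myoblasts, Msc rose by 6.63 ± 1.18 (adjusted p = 0.000561) and Lmx1b by 4.12 ± 0.42 (adjusted p = 9.6e-06), and Tbx4 rose by 2.25 ± 0.56 (adjusted p = 0.00366).

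Regulators of the clusters were called in both directions. Of 35 Polycomb and trithorax genes, 10 rose and 4 fell in GFP+ MPC against GFP+ myoblasts (median 0.20). In bulk MPC against bulk myoblasts, 6 rose and 12 fell (median -0.20). In GFP+ against bulk MPC, 22 rose and 5 fell (median 0.50), and in GFP+ against bulk myoblasts, 18 rose and 2 fell (median 0.39). In these comparisons 48.6%, 58.5%, 66.6% and 30.0% of all genes passed. Of all genes, 26.0%, 28.4%, 32.9% and 12.7% rose, and 22.7%, 30.1%, 33.7% and 17.4% fell. Ezh2, the methyltransferase of Polycomb complex PRC2, rose by 2.37 ± 0.32 in GFP+ against bulk MPC (edgeR adjusted p = 2.18e-05). It was also called higher in GFP+ against bulk myoblasts. Of 11 tested genes of retinoic acid metabolism and response, 3 rose and 3 fell in GFP+ MPC against GFP+ myoblasts (median 0.12). In bulk MPC against bulk myoblasts, 2 rose and 3 fell (median 0.09). These shares were near those of all genes, of which 48.6% and 58.5% passed. Rarb, a receptor gene that retinoic acid induces, rose by 4.84 ± 0.62 in GFP+ MPC (adjusted p = 3.75e-05) and by 5.17 ± 0.63 in bulk MPC (adjusted p = 1.7e-05). Cyp26b1, which degrades retinoic acid, changed by -4.31 ± 1.1 in GFP+ MPC (adjusted p = 0.0056) and by -0.63 ± 0.95 in bulk MPC (adjusted p = 0.591). It was at 0.0601, 2.59 and 0.0519 scaled TPM in bulk MPC, against 1.63, 1.68 and 1.25 in bulk myoblasts. Bulk MPC replicate 2 thus lay above the bulk myoblasts, and replicates 1 and 3 lay below them. Aldh1a3, which makes retinoic acid, fell by 1.96 ± 0.54 in GFP+ MPC (adjusted p = 0.00901) and by 3.45 ± 0.55 in bulk MPC (adjusted p = 0.000153). Aldh1a1, of the same enzyme family, changed by 0.02 ± 0.58 in GFP+ MPC (adjusted p = 0.983) and fell by 4.18 ± 0.79 in bulk MPC (adjusted p = 0.000545). Of 5 tested noncoding and flanking genes of the clusters, Hoxa11os passed in both comparisons of MPC with myoblasts and the other 4 did not.

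The high-passage MPC library had levels of 3 distal genes above those of the other GFP+ MPC libraries. Hoxa11 was at 14.5 scaled TPM in it, against 0.109 to 0.651 in GFP+ MPC. Hoxa13 was at 2.53, against 0.222 to 0.681 in GFP+ MPC, and Hoxc13 at 9.61, against 0.265 to 2.24. The levels of that library lay within the range of the GFP+ myoblasts for Hoxa11 and outside it for Hoxa13 (0.784 to 1.74) and Hoxc13 (14.8 to 22.0). Hoxc12 had 1 estimated count. Hoxa11os was at 39.6 scaled TPM, the highest of the 16 libraries. Of the 25 Hox genes of more than trace level, 4 lay above the range of the GFP+ MPC libraries (16.0%), 11 within it (44.0%) and 10 below it (40.0%), against 21.2%, 48.6% and 30.2% of the 14231 genes at this level, so the Hox shares were not far from those of genes in general. Hoxc12, with 1 count, was among the 4. Hoxa10 and Hoxc10 were at 29.2 and 28.8, and every gene of cluster D was at 0 counts. With no replicate, these differences have no test, and sex, age, passage, the sort of the starting cells and time in MPC medium all differed from the other MPC libraries and cannot be told apart.

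Same-numbered replicates were also compared, since the library names give replicates 1, 2 and 3 of every group the numbers 74, 75 and 76, though the labels do not say what these stand for. With group in the model, 0 of 27 Hox genes differed by replicate number in edgeR, where 0.0% of all genes passed, and the smallest adjusted p of a Hox gene was 0.994. At an unadjusted p under 0.05 there were 7 Hox genes, or 25.9% of those tested, and 617 genes, or 3.97%, overall. These 7 were Hoxa5, Hoxa6, Hoxa9, Hoxa10, Hoxa13, Hoxc5 and Hoxc13. None passed the correction.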

How the data were processed

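Gene expression was measured by stranded, single-end mRNA sequencing in 16 libraries. The authors trimmed reads with fastp 0.20.0 and quantified transcripts with kallisto 0.46.1, per the submitters' processing notes; whether strand was used is not given in the sources used here. The deposited files hold estimated counts, TPM and transcript lengths per transcript, per the file headers. Both measures were summed per gene through GENCODE M21 names (120739 of 121798 transcripts matched), and estimated counts were rounded.

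Counts of the 15 replicated libraries were fitted together in edgeR 4.0.16 (R 4.3.3) with TMM factors, a filter for low counts (minimum 10 per library and 15 in all), the quasi-likelihood F test and Benjamini-Hochberg adjustment over 15533 genes. The 7 comparisons were contrasts of this fit, and the high-passage library was set beside it without a test. The fit was tested on simulated data. DESeq2 1.42.0, other size factors, no filter, length-scaled counts, a replicate block and leaving out libraries were alternatives. Depth limits precision, and intervals and limits for counts of 0 cover counting error only.

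Hox genes could all be named; of other lists, up to 4 genes with the largest called change per comparison were, except where stated and except for a cofactor gene that is not reported here. The members and lists were chosen with earlier results of these data known. Promoter windows are RefSeq, GRCm38.p6.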

Additional observations from a re-analysis of the deposited data

Results flagged for a closer look

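For Hoxc5 the sort effect in MPC minus the sort effect in myoblasts was 1.23 on the log2 scale, a difference between cultures that passed the test of the difference itself (edgeR adjusted p = 0.0316) and was lost in most alternatives. For Hoxc12 the same difference was -6.37 (edgeR adjusted p = 0.00299), with 0 counts in GFP+ MPC.

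The high-passage library was outside the replicated comparisons, and its levels of Hoxa11 (14.5 scaled TPM), Hoxa13 (2.53) and Hoxc13 (9.61) were above all 3 GFP+ MPC libraries. These are values of 1 library with no test.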

How the results depend on the processing

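Of 645 alternatives to 49 called Hox changes, 533 kept direction and call, 112 lost the call and 0 reversed; 25 changes were called in every alternative. Fitting only the groups compared gave 4 called Hox genes in GFP+ MPC against GFP+ myoblasts (8 as reported), 12 in differentiated against bulk myoblasts (4 as reported) and 5 in GFP+ against bulk MPC (12 as reported). With no filter on low counts there were 2 in differentiated against bulk myoblasts and 1 in the difference of sort effects (2 as reported), where length-scaled counts also gave 1. With both MPC libraries of number 2 left out, an alternative chosen after seeing the data, there were 7 in differentiated against bulk myoblasts and 4 in GFP+ against bulk myoblasts (2 as reported). With 1 replicate left out at a time, the counts ran from 5 to 9 in GFP+ MPC against GFP+ myoblasts, from 2 to 4 in differentiated against bulk myoblasts and from 1 to 2 in the difference of sort effects. The lowest counts came without GFP+ myoblast replicate 2 in the first of these, and without differentiated replicate 2 or bulk myoblast replicate 1 or 2 in the second. In the third, the lowest count came without GFP+ MPC replicate 1, any bulk MPC replicate, GFP+ myoblast replicate 3 or bulk myoblast replicate 2 or 3. The causes were not tested. Paralogs 9 to 13 held 57.7% of the Hox sum in bulk MPC with TMM-scaled CPM. Same-numbered libraries shared a replicate number and a number in the library name, whose meaning is not given. Their deviations had a median correlation of 0.023 (-0.166 to 0.209 over 30 pairs). Differently numbered libraries had a median of -0.0085 (-0.256 to 0.163 over 60 pairs). Correlations above 0.1 were found in 8 of the 30 pairs, mostly between unsorted groups, and in 3 of the 60. The main fit had no term for the replicate number. With that number as a replicate block, the counts were 8 in GFP+ MPC against GFP+ myoblasts, 13 in bulk MPC against bulk myoblasts, 6 in differentiated against bulk myoblasts, 10 in bulk MPC against differentiated myoblasts, 15 in GFP+ against bulk MPC, 3 in GFP+ against bulk myoblasts and 2 in the difference of sort effects. Genes at under about 1 scaled TPM rest on few counts, so small differences there were not detectable at this depth.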
